A study of Homo sapiens with 2 samples.

Results

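Histone genes encode the proteins that wrap DNA into nucleosomes. The core histones H2A, H2B, H3 and H4 form the nucleosome, and the linker histone H1 binds where DNA enters and leaves it. Most of these genes are short, lack introns, sit in clusters and are transcribed in S phase, when new chromatin is assembled; their replication-type transcripts end in a stem-loop in place of a poly(A) tail. Variant genes such as H2AZ1, H2AX, H3-3A and MACROH2A1 lie alone and are transcribed outside S phase as well. The genes described here were the protein-coding genes of the RefSeq table (GRCh38.p14) whose symbols begin with H1-, H2AC, H2BC, H3C or H4C, or with H2AZ, H2AX, H3-3 or MACROH2A. Of the 19974 protein-coding genes that RefSeq places on the autosomes and X, 81 met this rule, of which 10 were H1 genes, 17 H2A, 19 H2B, 13 H3, 15 H4 and 7 variants.

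LDB1 is an adaptor protein with no DNA-binding domain of its own that joins GATA factors, LMO proteins and E-box-binding factors in one complex and helps bring enhancers and promoters together. Its sites were profiled by CUT&Tag, in which an antibody directs the Tn5 transposase to cut and tag nearby DNA, in untreated NB4 cells, an established human acute promyelocytic leukaemia line. The study made 1 LDB1 library and 1 IgG library, and only the LDB1 peak list was analysed here. It held 53742 peaks, 52765 of them on the chromosomes named, each with a position and a width but no height, score or read count, so the depth is unknown and no value has a replicate check. No p-value is therefore given. Neighbouring histone genes also share peaks, so the genes are not independent of one another. Whether the IgG library was subtracted, and how reads that align to several places were handled, is not given in the sources used here, so background in open chromatin and LDB1 binding cannot be told apart. Coordinates are hg38 and count from 1.

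LDB1 peaks lay at histone genes more often than at protein-coding genes as a whole. A peak midpoint fell within 1 kb of either end of the gene for 52 of 81 histone genes (64.2%), where 37.6% of all protein-coding genes had one. In the gene or within 10 kb of it, 75 of 81 (92.6%) had a peak, against 70.1% of all protein-coding genes, with a median of 2 peaks per gene against 1. Short genes have less sequence inside these windows, and the other protein-coding genes of 1 kb or less had a peak at an end in 16.9% of cases and within 10 kb in 31.0%. Many of those are olfactory receptor and keratin-associated genes. Without them the share at a gene end was 28.5% (71 of 249), while it was 61.3% (38 of 62) for the histone genes of 1 kb or less. The 52 genes shared 48 distinct peaks, of which 38 lay at an end of 1 histone gene, 9 at ends of 2 and 1 at ends of 3.

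The peaks at histone genes were not wide. Those at histone gene ends were 540.5 bp wide in the median, with quartiles at 410.5 and 778.75 bp, against 635 bp (444 and 963 bp) for all 7882 peaks at protein-coding gene ends. Counting only the widest 25% of all peaks, 16.0% of the histone genes had a peak at an end beside 13.9% of all protein-coding genes, and 34.6% had one within 10 kb beside 34.9%. The shares for histone genes were thus close to those of all genes where only the widest peaks were counted. The genes closest to the 1 kb limit on the inside were H3-3A, H4C1, H2AC16 and H2BC18, whose nearest midpoints lay 960, 962, 989 and 993 bp from a gene end. Those closest on the outside were H3C3 at 1048 bp, H2AC4 at 1164 bp and H3C6 at 1300 bp.

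**Figure D1:**
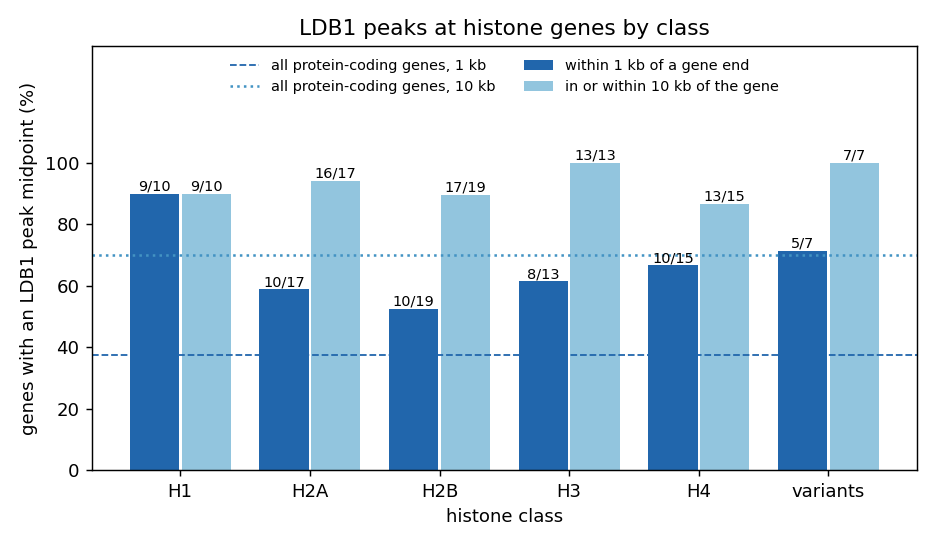
Share of genes in each histone class with an LDB1 peak midpoint within 1 kb of a gene end (dark bars) and in or within 10 kb of the gene (light bars), in percent, with the number of genes above each bar; the lines give the shares over all 19974 protein-coding genes. H1 genes had the highest share at gene ends (9 of 10) and H2B genes the lowest (10 of 19), and every bar stands above its line.

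Promoter windows of RefSeq (GRCh38.p14), 250 bases before to 50 bases after the transcription start, were found for 74 of the 81 genes, and a few are printed here because they show the kinds of start that did and did not carry a peak. Lower-case letters run 5′ to 3′ on the gene's own strand, and capitals mark 3 motifs found on either strand. These are the CCAAT box, written CCAAT, the TATA box, written TATAAA, and the octamer bound by Oct factors at H2B promoters, written ATTTGCAT. None of these motifs contains another, and all are known elements of histone promoters. The first window is the stretch between the divergent starts of H2BC13 and H2AC13 (chr6:27807923-27808222, plus strand), all 300 bases of which lay under a peak of 1004 bp.
H2AC13: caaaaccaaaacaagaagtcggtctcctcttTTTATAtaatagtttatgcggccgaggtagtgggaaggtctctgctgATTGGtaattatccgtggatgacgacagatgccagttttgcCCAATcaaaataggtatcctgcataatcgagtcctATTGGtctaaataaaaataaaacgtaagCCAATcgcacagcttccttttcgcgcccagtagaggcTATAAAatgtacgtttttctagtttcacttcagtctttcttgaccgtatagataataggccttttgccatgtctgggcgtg
The same kind of stretch between H2BC4 and H2AC6 (chr6:26123922-26124221, plus strand) had no base under a peak, and no peak midpoint lay within 10 kb of either gene.
H2AC6: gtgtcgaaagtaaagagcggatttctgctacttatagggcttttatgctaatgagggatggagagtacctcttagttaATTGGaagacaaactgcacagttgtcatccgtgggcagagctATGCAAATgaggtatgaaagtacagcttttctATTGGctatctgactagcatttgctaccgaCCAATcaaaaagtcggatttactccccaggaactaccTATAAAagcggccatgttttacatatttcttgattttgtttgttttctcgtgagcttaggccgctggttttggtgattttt
The windows of H2AC18 (chr1:149842701-149843000, minus strand) and H2AC19 (chr1:149850811-149851110, plus strand) belong to an inverted duplication. They were the same in all 299 bases compared after a shift of 1 base, so reads from them cannot be assigned to a copy.
H2AC18: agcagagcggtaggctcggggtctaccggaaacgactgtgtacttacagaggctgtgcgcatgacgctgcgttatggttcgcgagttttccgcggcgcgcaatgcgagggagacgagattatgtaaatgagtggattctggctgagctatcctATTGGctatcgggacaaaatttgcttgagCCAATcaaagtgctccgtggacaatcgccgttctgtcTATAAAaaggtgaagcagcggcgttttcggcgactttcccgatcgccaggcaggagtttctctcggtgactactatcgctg
H2AC19: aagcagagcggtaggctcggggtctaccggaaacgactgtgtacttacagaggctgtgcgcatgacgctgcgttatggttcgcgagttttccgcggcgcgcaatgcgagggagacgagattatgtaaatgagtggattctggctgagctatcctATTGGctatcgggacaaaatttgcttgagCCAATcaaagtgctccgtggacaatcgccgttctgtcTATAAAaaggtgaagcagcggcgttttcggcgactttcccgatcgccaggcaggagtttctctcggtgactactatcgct
At H1-2 (chr6:26056421-26056720, minus strand) and H3C2 (chr6:26032050-26032349, minus strand) only the last 85 and 72 bases of the window lay under the peak, which extended over the gene.
H1-2: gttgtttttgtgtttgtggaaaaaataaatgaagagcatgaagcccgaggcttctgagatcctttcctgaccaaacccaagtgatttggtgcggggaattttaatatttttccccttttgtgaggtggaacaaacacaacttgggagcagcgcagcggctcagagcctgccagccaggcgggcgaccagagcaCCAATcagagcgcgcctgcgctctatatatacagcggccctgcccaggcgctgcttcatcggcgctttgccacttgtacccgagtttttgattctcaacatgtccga
H3C2: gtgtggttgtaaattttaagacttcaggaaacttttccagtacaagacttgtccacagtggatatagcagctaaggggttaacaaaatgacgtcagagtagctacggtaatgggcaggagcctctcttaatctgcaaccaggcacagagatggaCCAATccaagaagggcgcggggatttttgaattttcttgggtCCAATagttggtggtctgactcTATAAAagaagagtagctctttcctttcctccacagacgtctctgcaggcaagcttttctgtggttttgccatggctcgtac
At H4C7 (chr6:26246947-26247246, minus strand) and H4C8 (chr6:26285485-26285784, minus strand) the whole window lay under the peak, and neither window holds CCAAT.
H4C7: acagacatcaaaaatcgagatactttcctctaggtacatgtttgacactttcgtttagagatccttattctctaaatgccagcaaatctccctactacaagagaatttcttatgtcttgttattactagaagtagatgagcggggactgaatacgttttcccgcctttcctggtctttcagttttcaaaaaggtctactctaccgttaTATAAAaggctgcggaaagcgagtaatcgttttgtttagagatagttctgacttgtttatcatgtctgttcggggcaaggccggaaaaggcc
H4C8: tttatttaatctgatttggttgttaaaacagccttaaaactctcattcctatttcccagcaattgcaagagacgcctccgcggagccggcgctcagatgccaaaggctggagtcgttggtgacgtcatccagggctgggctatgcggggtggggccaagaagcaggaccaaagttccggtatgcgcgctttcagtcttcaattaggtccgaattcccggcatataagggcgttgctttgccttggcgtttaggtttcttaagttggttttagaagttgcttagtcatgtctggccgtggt

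A peak overlapped the promoter window of 34 of the 74 histone genes (45.9%), against 24.7% of the 15812 protein-coding genes with a window. CCAAT was present in 82.4% of histone windows and in 36.3% of all, TATAAA in 62.2% and 9.64%, and ATTTGCAT in 36.5% and 1.7%. The CCAAT and TATAAA shares hardly differed between windows with and without a peak: CCAAT was in 28 of 34 windows with a peak and 33 of 40 without, and TATAAA in 22 of 34 and 24 of 40. The octamer differed by class, with 11 of 16 H2A and 14 of 18 H2B windows holding it and 0 of 13 H4 windows. CCAAT also differed by class: all 16 H2A, 18 H2B and 11 H3 windows held it, as did 8 of 9 H1 windows, but only 3 of 13 H4 windows. The window listed for H3C4 is that of H2AC7, as both genes have the same listed start. Within the H2A and H2B classes, a peak overlapped 7 of the 25 windows with the octamer and 6 of the 9 without. Those 6 included the divergent pairs H2AC25 and H2BC26, and H2BC13 and H2AC13, each under a shared peak. The others were the copies H2AC18 and H2AC19. The 7 with the octamer also include divergent pairs. The same stretches are thus counted more than once, and no difference is drawn from these counts. Letters of sites for factors that LDB1 joins were no more common in the histone windows than in the windows of all genes. A site for GATA factors, spelled AGATAA or else spelled TGATAA, was in 12.2% of histone windows and 12.0% of all. An E-box of basic helix-loop-helix factors, spelled CAGCTG or else spelled CAGATG, was in 24.3% and 27.0%. The GATA letters were in 4 of 34 histone windows with a peak and 5 of 40 without, and the E-box letters in 9 of each. The windows end 50 bases after the start, and many peaks ran on over the gene. Sequence under the peaks outside the windows was not searched. A match is a description of the letters and not evidence of binding. The windows were less rich in G and C than others, with a median of 44.9% against 62.7%. That median was 47.3% in the 34 histone windows with a peak and 42.9% in the 40 without.

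Near their starts, histone genes were under a peak most often just after the start. Along the 74 genes with a known start, the share under a peak was 14.9% at 500 bp before the start, 35.1% at the start, 47.3% at 150 bp after it and 21.6% at 500 bp after it. Over all protein-coding genes the share was 9.16% at 500 bp before the start, 20.6% at it and 15.6% at 500 bp after it, with a highest value of 22.5% at 100 bp after it. Midpoints within 500 bp of a start lay downstream of it in 24 of 37 cases for histone genes (64.9%) and in 63.5% of cases for all protein-coding genes, so the downstream side was no more favoured than elsewhere. Where the peak began was also compared, a feature chosen after the values were seen. Head-to-head genes under a shared peak, such as H2BC13 and H2AC13, enter as separate pairs, so the pairs are not independent. With 1 library, whether the shares differ was not tested. Among the 36 pairs of a histone gene and a peak touching its first 300 bases, the upstream edge of the peak lay within 100 bp of the start in 20 (55.6%), against 24.7% of the 4181 such pairs of all protein-coding genes and 35.6% of the 45 pairs of other genes of 1 kb or less. H3 genes had such an edge in 5 of 5 pairs, H4 genes in 6 of 8, H1 genes in 3 of 6, H2A genes in 3 of 6, H2B genes in 1 of 6 and the variants in 2 of 5.

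**Figure D2:**
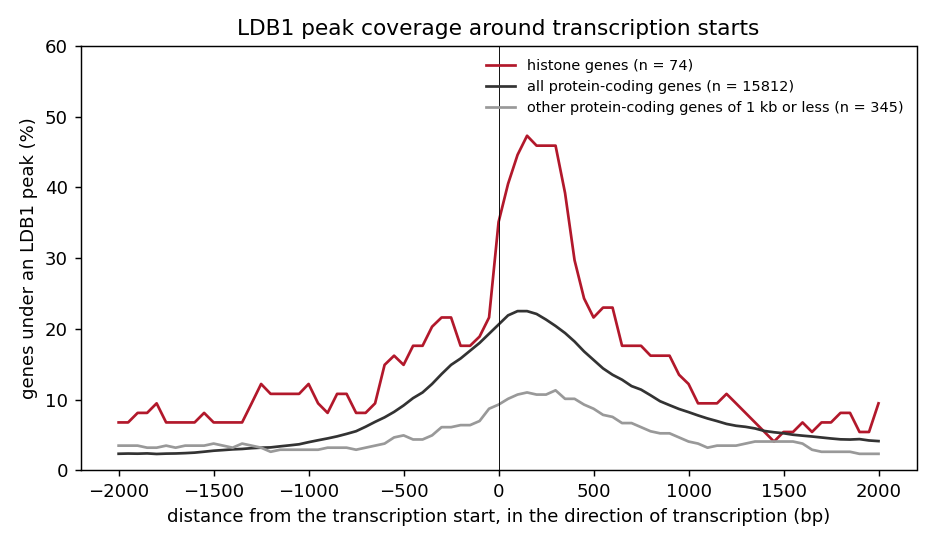
Share of genes under an LDB1 peak, in percent, at each distance from the transcription start in bp, for the 74 histone genes with a known start, all 15812 protein-coding genes with one, and the 345 other protein-coding genes of 1 kb or less. The histone curve rises steeply at the start and reaches 47.3% at 150 bp after it, where both other curves are lower.

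A peak overlapped the body of 32 of the 62 histone genes of 1 kb or less, and it covered at least 50% of the body in 28 of them. In 6 the whole gene lay under the peak, and in 30 no base did. Among other protein-coding genes of that length, 13.9% had a peak over the body, and 23.3% (58 of 249) without the olfactory receptor and keratin-associated genes. The share was 5 of 6 for H1 genes, 7 of 11 for H3, 8 of 14 for H4, 7 of 17 for H2A and 5 of 14 for H2B. H4C4 shows the pattern most plainly: its gene is 403 bp long, and its peak of 647 bp began at the start itself and ended 646 bp after it.

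**Figure D3:**
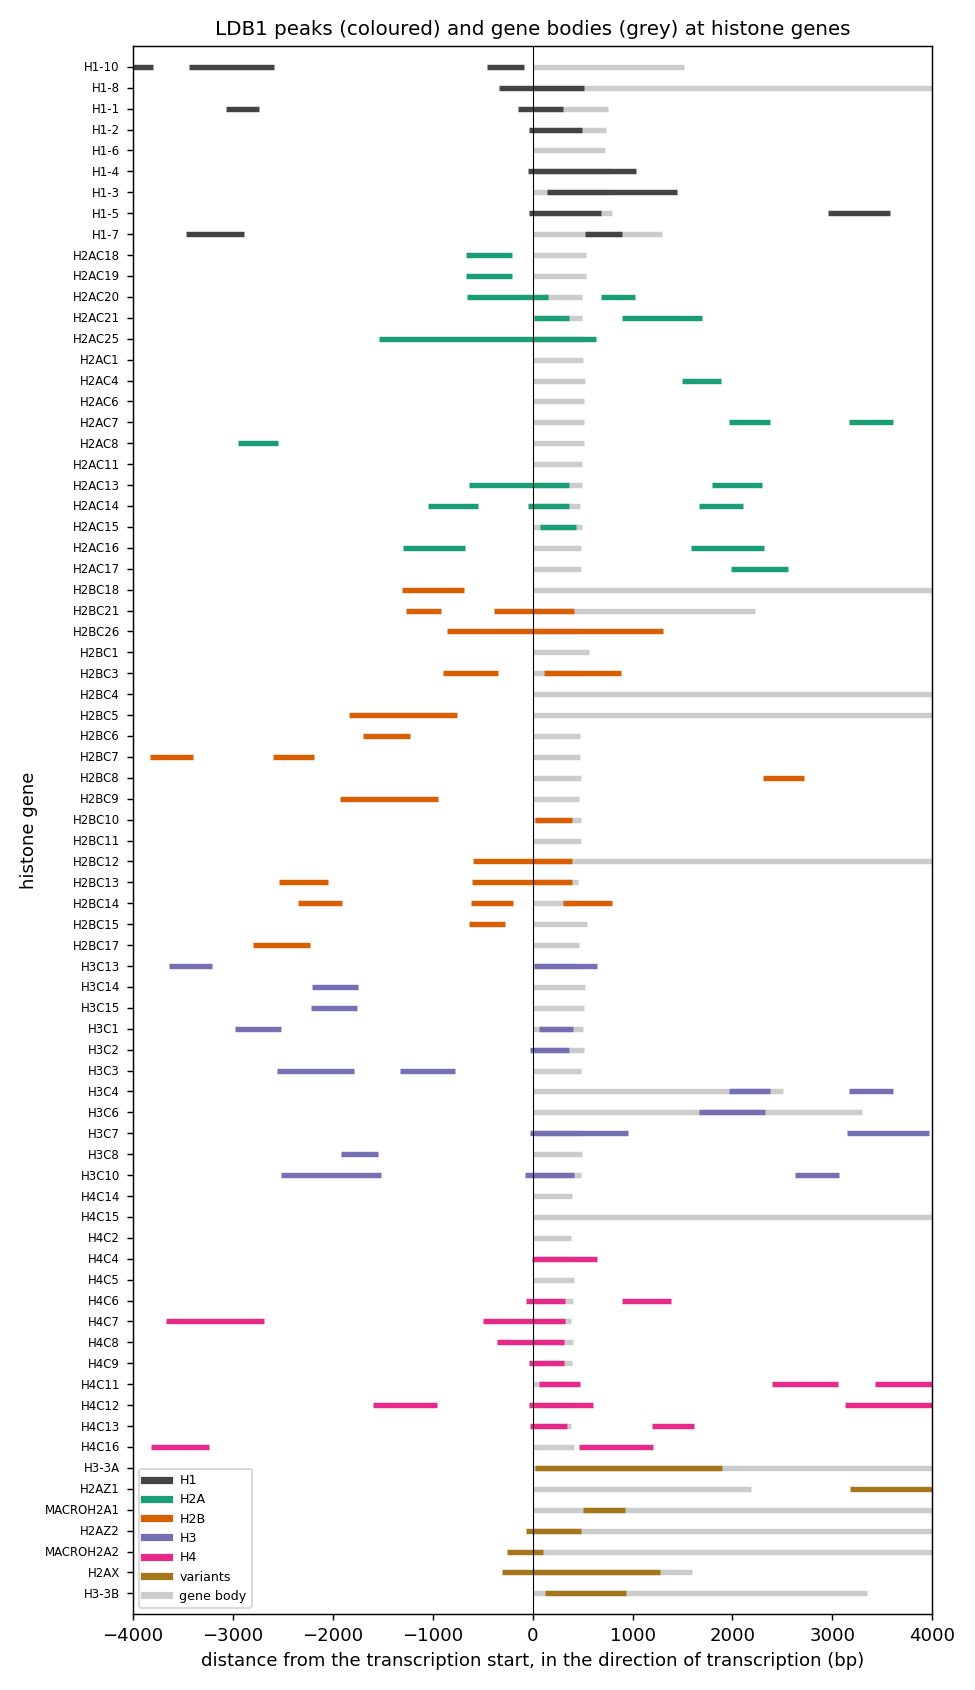
LDB1 peaks (coloured by class) and gene bodies (grey) of the 74 histone genes with a known start, each row a gene and the axis the distance from the start in bp. At many H1, H3 and H4 genes a single peak begins near the start and runs over the gene, while many H2A and H2B rows have no peak on the body.

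The linker histone genes carried peaks at their ends in 9 of 10 cases. H1-1 to H1-5 encode the somatic linker histones made in S phase, and all 5 had a peak over the gene. The widths were 457 bp at H1-1, 535 bp at H1-2, 1303 bp at H1-3, 1079 bp at H1-4 and 727 bp at H1-5. The H1-4 peak covered 100% of the gene and the H1-5 peak 86.3%, while the H1-1 peak covered 40.7%. The exception was H1-6, the testis linker gene in the same cluster, whose nearest midpoint lay 19782 bp away. The other germ-line linkers did have a peak at an end, of 371 bp at H1-7, the spermatid gene on chromosome 12, and of 847 bp at H1-8, the oocyte gene on chromosome 3. H1-10 and H1-8 mark the ends of a stretch of 237 kb, in or within 10 kb of which 35 peaks lay. H1-10 had a peak of 366 bp centred 268 bp before its start and 5 within 10 kb.

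Genes of H2A and H2B, which form a dimer and are often arranged head to head over 1 shared promoter, had the lowest shares at gene ends, 10 of 17 and 10 of 19. The order depends on the measure. Within 1 kb of a known start the share was 5 of 11 for H3 genes, beside 9 of 16 for H2A and 9 of 18 for H2B. The start listed for H3C4, counted there without a peak, is also that of H2AC7, so H3 cannot be ranked below H2B. Of 11 head-to-head pairs with both starts known and at most 500 bp apart, a peak overlapped the stretch between the starts in 4, against 21.0% of the 708 other protein-coding pairs of that kind. With 11 pairs from 1 library, no difference is drawn from these shares. The 4 were H2BC21 and H2AC20 (802 bp), H2AC25 and H2BC26 (2164 bp), H2BC13 and H2AC13 (1004 bp), and H2AC14 and H2BC14 (412 bp). Only at H2BC13 and H2AC13 did the midpoint fall between the starts, in the stretch printed above. The pairs H2AC1 and H2BC1, H2BC4 and H2AC6, H2AC7 and H2BC7, H2BC8 and H2AC8, H2BC11 and H2AC11, H2AC15 and H2BC15, and H2AC17 and H2BC17 had none there. H2AC1 and H2BC1 are the testis pair, and their nearest midpoints lay 6114 and 5331 bp away. At H2AC15 the peak of 363 bp lay inside the gene and covered 73.2% of it, and H2BC15 counted through that peak. H2BC5 counted only through a peak of 442 bp centred 893 bp beyond the far end of a RefSeq span of 13229 bp. H2BC12 and H2AC12, whose start was not in the promoter table, shared a peak of 987 bp that covered 75.7% of H2AC12. The widest peak at a core histone gene was that over H2AC25 and H2BC26 on chromosome 1 (chr1:228457244-228459407), which covered both genes whole.

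H3 genes had a peak at an end in 8 of 13 cases and within 10 kb in all 13. Peaks over the gene were 337 bp wide at H3C1, 387 bp at H3C2, 979 bp at H3C7, 495 bp at H3C10, 422 bp at H3C11 and 623 bp at H3C13. They covered from 66.3% of H3C1 to 100% of H3C7. H3C12 had a peak of 571 bp over 38.7% of the gene. H3C4 counted through peaks of 431 and 417 bp at the far end of a RefSeq span of 2510 bp that also contains H2AC7. The peak of 417 bp lay inside the span and covered 16.6% of it. H2AC7 itself had no peak within 1 kb. H3C3, H3C6, H3C8, H3C14 and H3C15 had none at an end. A peak of 665 bp did lie inside the RefSeq span of H3C6, which is 3296 bp long, 1300 bp from its nearest end.

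H4 genes had a peak at an end in 10 of 15 cases. Those whose peak lay over the gene were H4C4, H4C6, H4C7, H4C8, H4C9, H4C11, H4C12 and H4C13, with 77.8% of H4C8 to 100% of H4C4 and H4C12 covered. The widths over these genes ran from 355 bp at H4C9 to 818 bp at H4C7. H4C1 and H4C16 had a peak within 1 kb but none on the gene, and the peak counted for H4C1 lies on the neighbouring H3C1. H4C2, H4C3, H4C5, H4C14 and H4C15 had no peak at an end. The H4 genes encode nearly the same protein, so genes with nearly the same product differed in whether a peak lay on them.

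The 7 variant genes all had a peak within 10 kb, and 5 had one at an end. H2AX, whose product is phosphorylated at DNA breaks, had a peak of 1582 bp (chr11:119094192-119095773) over 80.0% of the gene. H3-3A and H3-3B both encode H3.3, the H3 variant deposited outside replication, and had peaks of 1863 and 811 bp that began 29 and 121 bp after the start. H2AZ2 and MACROH2A2 had peaks of 556 and 365 bp at their starts. H2AZ1, the other gene for the promoter-linked variant H2A.Z, had a single peak within 10 kb, of 866 bp and 1420 bp from the gene's end. MACROH2A1, which encodes a variant with a large extra domain, had 5 peaks within 10 kb. Its peak of 416 bp lay 716 bp after the start in the promoter table but 1371 bp from the end of the RefSeq gene span, so it was not counted at a gene end.

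By position, the 81 genes fell into 17 loci, joined where neighbours lay 500 kb or less apart. Of these loci, 4 had 3 or more members and together held 66 genes. Those 4 loci held 55 distinct peaks with 10 kb added to either side. The last chromosome 6 locus, from H2BC13 to H2BC17 (chr6:27807479-27893891, 86.4 kb), was the densest of these 4. It held 19 peaks for 16 genes or 17.9 peaks per 100 kb, where chromosome 6 as a whole held 1.62. A peak lay at an end of 14 of its 16 genes, all but H2AC17 and H2BC17. The first locus, from H2AC1 to H4C8 (chr6:25726063-26285534, 559 kb), held 34 genes and 27 peaks, 4.66 per 100 kb, with a peak at an end of 16. The middle locus, from H2BC11 to H2AC12 (chr6:27132316-27147562), held 5 genes and 2 peaks, and 3 of its genes had a peak at an end. Whether the loci differ was not tested, as there is 1 library.

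Within the first chromosome 6 locus, a stretch of 68.5 kb (chr6:26087831-26156281) contained H4C3, H1-6, H2BC4 and H2AC6 and no peak. These are 4 of the 6 histone genes with no peak midpoint within 10 kb; the others are H4C14 on chromosome 1 and H2BC12L on chromosome 21. The nearest histone genes on either side are H1-2 and H1-4, with the peaks of 535 and 1079 bp given above, and the H1-4 peak is the one that ends the stretch. The stretch was picked for holding the most histone genes. Longer stretches without a peak lie earlier in the locus, such as that between peaks ending at 25732879 and starting at 25882101. Chromosome 6 as a whole held 1.62 peaks per 100 kb. Of the 6 other protein-coding genes in this locus, 1 had a peak at an end.

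**Figure D4:**
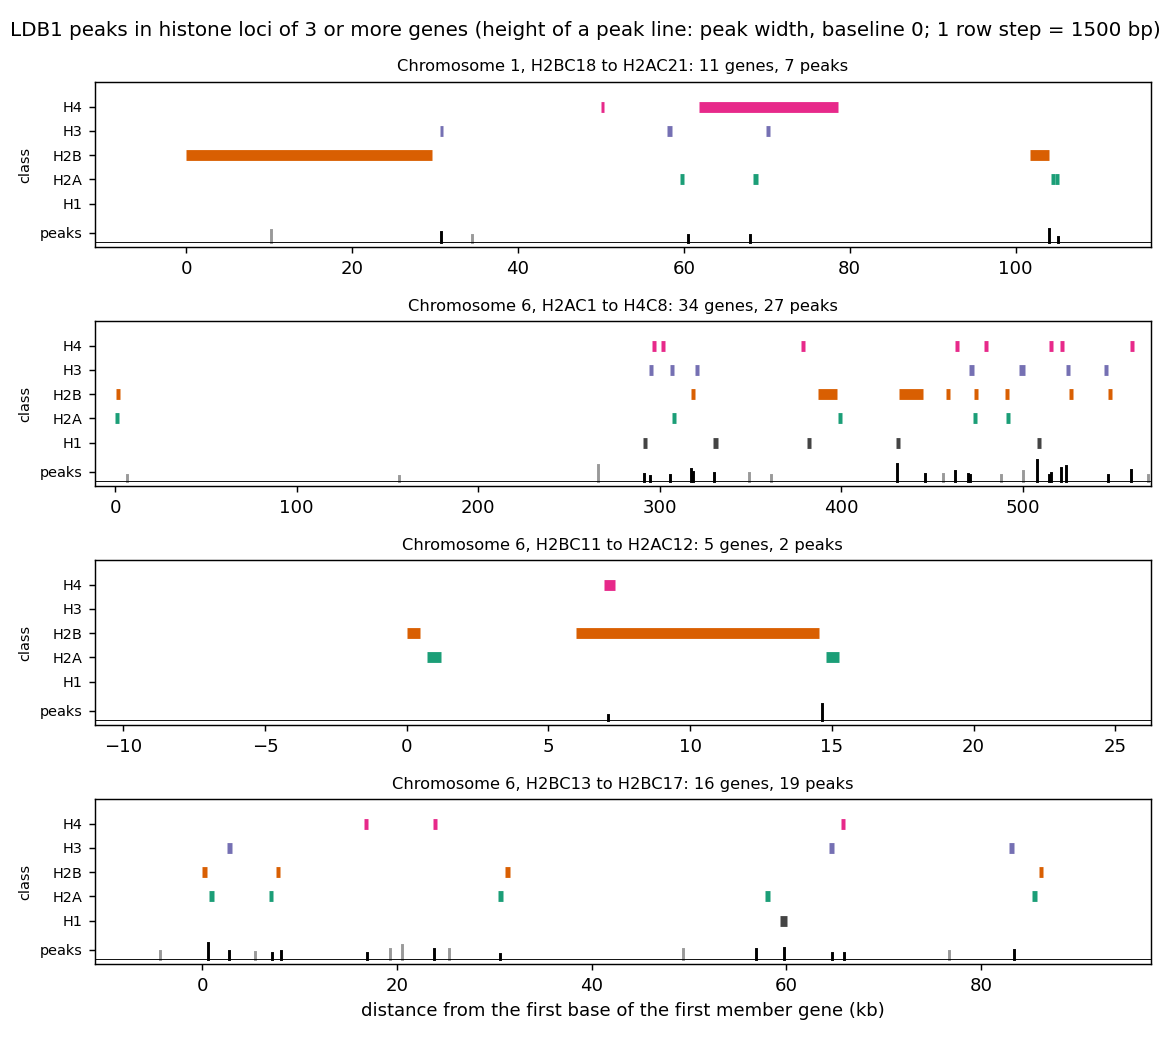
Maps of the 4 loci of 3 or more histone genes, with genes as bars by class and LDB1 peaks as vertical lines whose height is the peak width (black within 1 kb of an end of a histone gene, grey elsewhere), against the distance in kb from the first gene. The 19 peaks of the bottom locus are spread along it, while the first chromosome 6 locus has 4 genes in a stretch of 68.5 kb without a peak.

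The chromosome 1 locus, from H2BC18 to H2AC21 (chr1:149782689-149887965, 105 kb), held 11 genes and 7 peaks, 5.59 per 100 kb against 2.15 for the chromosome, and 7 genes had a peak at an end. Part of it is an inverted duplication, and its counts are uncertain. H2AC18 and H2AC19 had peaks of 462 and 458 bp with midpoints 434 and 435 bp before the start, mirror images of each other, and those peaks lay over the pseudogenes H2BC19P and H2BC20P. H3C14 and H3C15, whose promoter windows were the same in all 296 bases compared, had their nearest midpoints 1976 and 1982 bp before the start. Elsewhere in the locus, H3C13 had a peak of 623 bp over 95.9% of the gene, H2BC21 and H2AC20 shared a peak of 802 bp, and H2AC21 had 349 bp over 70.2% of the gene. H2BC18 and H4C15 have RefSeq spans of 29682 and 16753 bp that take in other genes, and H2BC18 counted only through the peak over H3C13. Further along chromosome 1 the pair H2AC25 and H2BC26 had 4 peaks within 10 kb, and the peak of 1003 bp lay over the pseudogene H2BC27P. The histone gene H3-4, outside the naming rule, lies in the same region (chr1:228424845-228425360).

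The peaks at genes inside the 4 loci were narrower than those at the histone genes outside them. The 37 distinct peaks at gene ends in the loci had a median width of 494 bp (range 337 to 1303 bp), and the 11 outside them had a median of 736 bp (365 to 2164 bp). Of those 11, 5 lay at variant genes, where the median was 811 bp, so place and gene class cannot be told apart. By chromosome, 19 of 26 genes off chromosome 6 had a peak at a gene end, beside 33 of 55 on it. The 26 include the 11 genes of the chromosome 1 locus.

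Histone pseudogenes, which carry histone sequence but give no protein, also had peaks. A midpoint lay within 1 kb of an end of 11 of the 24 histone pseudogenes of 1 kb or less (45.8%), against 4.72% of 10421 other pseudogenes of that length. A peak overlapped the body of 7 of them (29.2%), against 2.84%. The pseudogenes with a peak at an end lie in or beside the histone gene clusters of chromosomes 1 and 6. Of the 12 distinct peaks involved, 9 were also counted at a histone gene end, and 3 were not. Those 3 were a peak of 1003 bp over H2BC27P on chromosome 1, 406 bp over H2AC2P and 325 bp over H2AC3P on chromosome 6. The dispersed pseudogenes, such as those named H2AZP1 to H2AZP7, H1-8P1, H1-8P2, H2ACP1 and H2ACP2, had none.

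**Figure D5:**
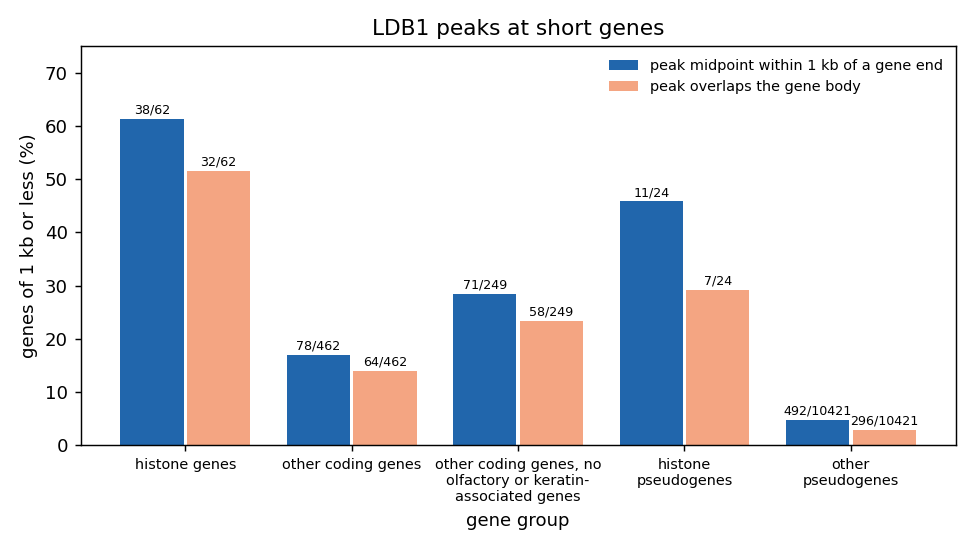
Share of genes of 1 kb or less with an LDB1 peak midpoint within 1 kb of an end (blue) and with a peak over the gene body (orange), in percent, for histone genes, other protein-coding genes with and without olfactory receptor and keratin-associated genes, histone pseudogenes and other pseudogenes. Histone genes (61.3%) and histone pseudogenes (45.8%) stand above the other groups at gene ends.

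Genes that act on histone genes or histones were near the share of all protein-coding genes. Of 18 genes for histone gene transcription and histone mRNA processing, 7 had a peak at an end (38.9%) and 13 within 10 kb (72.2%). NPAT, the S-phase coactivator of histone genes, had a peak of 442 bp at an end, and LSM11, part of the particle that cuts histone transcripts, had 699 bp. POU2F1, which encodes the octamer-binding factor Oct-1, had 766 bp and CPSF3, the cutting enzyme, 1216 bp; SRRT, ERI1 and CCNE2 were the others. SLBP, which encodes the stem-loop binding protein and is named here after its values were seen, had 4 peaks within 10 kb and none at an end. No peak lay within 10 kb of CASP8AP2, LSM10, CPSF2, CDK2 or CSTF2. Of 23 genes for histone chaperones and deposition, 10 had a peak at an end (43.5%) and 16 within 10 kb (69.6%). Of the peaks at gene ends in this list, HIRA, the H3.3 chaperone, had the widest at 1903 bp, followed by NAP1L1 at 1455 bp, ASF1A at 1420 bp and HJURP at 1110 bp. CHAF1B, a subunit of the assembly factor CAF-1, had 554 bp, and no peak lay within 10 kb of MCM2, SUPT16H or SRCAP.

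Histone genes outside the naming rule had peaks at about the same share as those inside it. Of 16 symbols listed, 14 were found as separate genes, and the other 2 are older names of genes already counted. A peak lay at an end of 9 of the 14 (64.3%) and within 10 kb of all 14. H2AJ, which shares its region with H4C16 on chromosome 12, had a peak of 572 bp. The primate genes H3Y1 and H3Y2 on chromosome 5 had 504 and 471 bp, and H3-4, a testis H3 gene on chromosome 1, had 861 bp. H3-7, H2BW1 and the H2AB1, H2AB2 and H2AB3 genes of the X chromosome completed the 9, and the H2AB genes are near-identical copies, so their peaks are uncertain. CENPA, the centromere H3, also named after its values were seen, had a single peak of 406 bp within 10 kb and none at an end.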

How the data were processed

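The authors deposited 1 table of LDB1 CUT&Tag peaks from NB4 cells. Per the file headers it gives chromosome, start, end, length in bp and a name for each peak, with no other value. The submitters' processing notes name hg38, Bowtie2 2.4.1 and MACS2 2.0.10, while peak-calling settings and any control sample were not given in the sources used here. For the IgG library no peak file was analysed here.

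Peak midpoints were set against RefSeq genes (GRCh38.p14) with Python 3.11.15 and pandas 2.3.3. A gene had a peak at an end when a midpoint lay within 1 kb of either end of its RefSeq span. Starts and strands came from the RefSeq promoter table. The counting was tested on simulated data. No test between samples was possible with 1 library per antibody. The histone genes and gene lists were chosen with earlier results of these data known. Every histone gene could be named, as could the genes of the related lists with a peak at an end, up to 5 of each list without one within 10 kb, and the 5 widest peaks. Alternatives changed the distances, the peak set, the use of midpoint or overlap, the genes counted and the locus limits. The upstream peak edges, the gene bodies and the pseudogenes were examined after values had been seen. The values of 1 histone gene enter the counts but are not reported here.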

Additional observations from a re-analysis of the deposited data

How the results depend on the processing

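The count of histone genes with a peak at an end, 52 of 81, fell to 33 at a distance of 250 bp (40.7%, where all protein-coding genes gave 15.9%), to 28 once peaks below the median width were dropped (34.6%, against 24.2%), and to 13 for the top 25% by width (16.0%, against 13.9%). It stayed within 1.5 times under the other 6 alternatives. These were 500 bp, a larger distance, any overlap, the start alone, no chromosome 1 cluster, and a set without the variants and the H1 genes off chromosome 6. The count within 10 kb, 75 of 81, fell to 34 with the gene body alone (42.0%, against 54.5% for all protein-coding genes, which are longer) and to 28 with the widest 25% of peaks (34.6%, against 34.9%). It stayed within 1.5 times under the other 6. The 55 peaks of the loci became 105 when genes up to 1 Mb apart were joined, 23 once peaks below the median width were dropped and 8 for the top 25% by width; the other 3 settings stayed within 1.5 times. Wider joining takes in more sequence and the width limits remove peaks by construction. Depth is unknown, so a gene without a peak cannot be told apart from one below the caller's threshold.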

Other observations

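The region between the first and last histone genes of chromosome 6 is also rich in tRNA genes. It holds 98 of the 443 tRNA genes in the RefSeq table, and 8 of these 98 (8.16%) had an LDB1 peak midpoint within 1 kb of an end, against 67 of 443 (15.1%) over all chromosomes. Of the histone windows that a peak overlapped and that hold CCAAT, 15 of 28 had a CCAAT wholly under the peak, and 14 of 22 had a TATAAA there.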
